A study of Mus musculus with 6 samples.

Results

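Mature oligodendrocytes, the myelin-forming glia of the central nervous system, were followed through 6 single-nucleus RNA-seq libraries of mouse cortical lesions. A nucleus was selected when at least 4 of 8 marker genes (Mog, Mobp, Mag, Opalin, Plekhh1, Sec14l5, Cldn14 and Car2) had a unique molecular identifier (UMI, a single captured transcript) and at most 1 of 7 exclusion genes did. The exclusion genes were Gpr17, Neu4 and Pdgfra of earlier lineage stages, Ptprc and Csf1r of immune cells, Col1a2 of fibroblasts and Rbfox3 of neurons. Of 67360 barcodes, 60729 had at least 1000 UMIs with under 5% of them mitochondrial, and 1703 of these nuclei were selected. The nuclei were thus chosen by the measured values of these 15 genes, whose own levels below are a description and not a result.

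Oligodendrocytes arise from Pdgfra-positive precursors, which pass through a committed stage marked by Gpr17 and Bcas1 before they wrap axons. Myelin is a lipid-rich stack of membrane held together by proteins such as Mbp, and the cell that maintains it also supplies its axons with metabolites. In the cortex these cells are sensitive to ischaemia, and precursors can give rise to new ones after injury.

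The lesions were made by photothrombosis (PT), in which light and a dye close cortical vessels. The 6 groups were Ctrl (WT, no treatment listed), ADWA11 (WT mice given an antibody that blocks integrin αvβ8, an activator of latent TGFβ, weekly from the day of injury) and Tgfbr2-cKO (genotype Col1a2(creER); Tgfbr2(flox)), each at 7 and at 21 days post-injury (dpi). In the Tgfbr2-cKO mice Cre is made under the promoter of the collagen gene Col1a2 and acts after tamoxifen, so that the receptor gene is lost from fibroblasts and not from oligodendrocytes. The study's methods mention tamoxifen for the controls of its conditional knockouts where it applied, without saying whether these Ctrl and ADWA11 mice were among them. Each library pooled lesion tissue of 1 male and 1 female adult mouse, and its nuclei were sorted on DAPI, a DNA dye. With 1 library per group there was no replicate and no test, and every interval below is an exact 95% interval that covers counting error only.

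Ctrl held 34 mature oligodendrocytes at 7 dpi and 96 at 21 dpi, ADWA11 held 51 and 15, and Tgfbr2-cKO held 888 and 619. Their median depth ranged from 4024.5 UMIs (Tgfbr2-cKO, 7 dpi) to 6400 UMIs (ADWA11, 7 dpi), and that of the other nuclei from 5227 to 9964 UMIs. The mature oligodendrocytes of a library summed to between 91626 UMIs (ADWA11, 21 dpi) and 6187082 UMIs (Tgfbr2-cKO, 7 dpi). A simulation of doublets called 0, 1, 160, 9, 15 and 32 of them, first at 7 dpi (Ctrl, ADWA11, Tgfbr2-cKO) and then at 21 dpi in the same order. All 15 nuclei of ADWA11 at 21 dpi were among those called, so every value of that library is given with this limit. In all, 553 distinct barcodes occurred in more than 1 library, 30 of them as mature oligodendrocytes of a library, and none was selected in 2 libraries.

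The selected nuclei carried the oligodendrocyte programme beyond the genes that chose them. The summed level of 14 further oligodendrocyte genes (among them Mbp, Cnp, Mal, Cldn11, Ermn, Aspa, Hapln2, Ugt8a, Myrf and St18) was 10740 to 22112 CPM (UMIs of a gene per 1000000 non-mitochondrial UMIs) in the 6 libraries, against 286 to 634 CPM in the other nuclei. Of all genes, 365 reached 50 CPM and at least 4 times the level of the other nuclei on average over the libraries, and these are called oligodendrocyte-enriched below. That average includes the libraries compared below, so a gene could pass through a library in which it was high. Counts and ranks among enriched genes are thus a description that is not independent of the comparisons. Schwann cell genes, a list of 6, summed to 20.9, 0 and 27.0 CPM at 7 dpi (Ctrl, ADWA11, Tgfbr2-cKO) and to 7.44, 0 and 14.7 CPM at 21 dpi, against 13.1 to 41.0 CPM in the other nuclei, and the defining gene Pmp2 had 0 UMIs in every library. Genes of earlier stages were present as well. The 6 precursor genes summed to 2220, 1686 and 682 CPM at 7 dpi and to 688, 306 and 442 CPM at 21 dpi, against 347 to 3043 CPM in the other nuclei, and above those nuclei in Ctrl at 7 dpi. The 5 committed precursor genes, which include Bcas1 and Enpp6, summed to 2048, 1605 and 626 CPM and then 930, 1233 and 937 CPM, against 34.4 to 322 CPM. The selected nuclei of every library thus carried mature oligodendrocyte genes, and both earlier-stage lists were highest in Ctrl and ADWA11 at 7 dpi.

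Transcripts of other cells were present too, and in different kinds by library. The summed level of 8 neuronal genes was 52.2, 15.8, 52.1 and 10.9 CPM in Ctrl 7 dpi, ADWA11 7 dpi, Ctrl 21 dpi and ADWA11 21 dpi. It was 6302 CPM in Tgfbr2-cKO at 7 dpi and 1216 CPM at 21 dpi, where the other nuclei of the same libraries had 12711 and 7153 CPM. Fibroblast genes ran the other way, with 350, 218, 934 and 644 CPM in the Ctrl and ADWA11 libraries in that order and 29.6 and 44.3 CPM in Tgfbr2-cKO. Myeloid genes lay between 355 and 633 CPM in all 6 libraries, below the 802 to 4178 CPM of the other nuclei. The part of this foreign RNA in the gene differences below was not tested. Values without called doublets or without nuclei that had an exclusion gene are given for some of them.

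**Figure D1:**
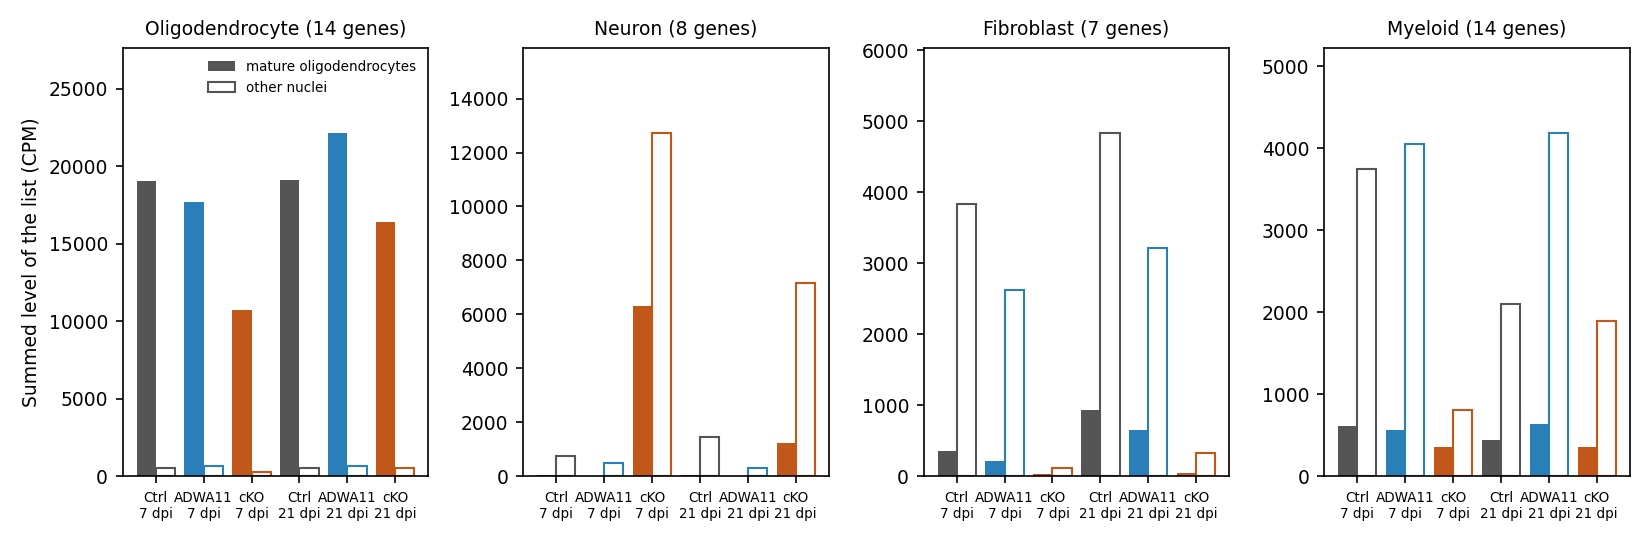
Summed level in CPM of 14 oligodendrocyte genes outside the selection, 8 neuronal, 7 fibroblast and 14 myeloid genes in each library, for mature oligodendrocytes (filled bars) and all other nuclei (open bars). The oligodendrocyte genes lie between 10740 and 22112 CPM in every set of mature oligodendrocytes, while neuronal genes reach 6302 CPM only in those of Tgfbr2-cKO at 7 dpi.

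Few nuclei lay near the limit of the markers and more near that of the exclusion genes. Among nuclei that passed the exclusion genes, 88 had exactly 3 of the 8 markers and stayed outside, 111 had exactly 4 and were taken in, and 918 of the selected nuclei (53.9%) had 7 or 8. The exclusion genes removed 406 of 2109 nuclei with at least 4 markers, from 13.5% in Tgfbr2-cKO at 21 dpi to 39.3% in Ctrl at 7 dpi. Of those with at least 4 markers, 559 had exactly 1 exclusion gene and were taken in, and 220 had exactly 2 and stayed outside. Col1a2 had a UMI in 39.2% (ADWA11, 7 dpi) to 74.0% (Ctrl, 21 dpi) of the selected nuclei of the Ctrl and ADWA11 libraries, against 63.9 to 87.5% of their other nuclei. It was found in 2.5% and 4.4% of the selected nuclei of Tgfbr2-cKO, against 8.2% and 21.0% of the others.

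Mature oligodendrocytes made up a far larger share of the nuclei in both Tgfbr2-cKO libraries. The share was 0.430% in Ctrl at 7 dpi (interval 0.298 to 0.600), 0.467% in ADWA11 (0.348 to 0.614) and 8.18% in Tgfbr2-cKO (7.67 to 8.71). The share at 21 dpi was 0.795% in Ctrl (0.645 to 0.970), 0.119% in ADWA11 (0.0663 to 0.195) and 9.78% in Tgfbr2-cKO (9.06 to 10.5). The Tgfbr2-cKO share was thus 19.0-fold that of Ctrl at 7 dpi and 12.3-fold at 21 dpi, which is 4.25 (3.76 to 4.79) and 3.62 (3.31 to 3.95) on the log2 scale. ADWA11 was not told apart from Ctrl at 7 dpi, with a log2 ratio of 0.12 (−0.53 to 0.79), and was below it at 21 dpi, with −2.75 (−3.64 to −1.95). Between 7 and 21 dpi the log2 ratio of the share was 0.89 (0.309 to 1.497) in Ctrl, −1.98 (−2.92 to −1.13) in ADWA11 and 0.26 (0.11 to 0.41) in the Tgfbr2-cKO mice.

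**Figure D2:**
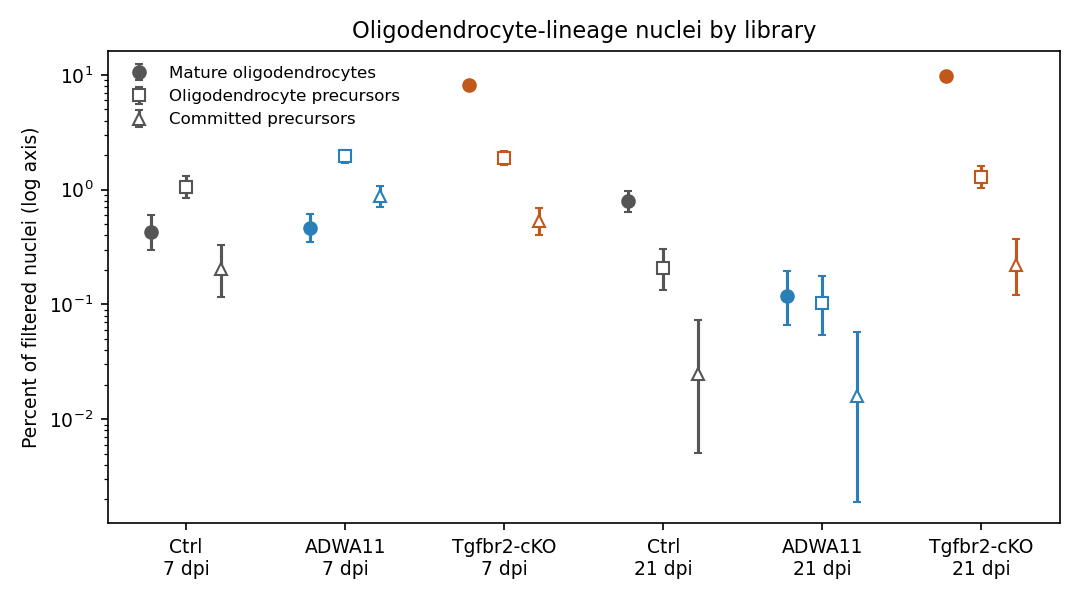
Percent of filtered nuclei (log axis) that were mature oligodendrocytes (filled circles), oligodendrocyte precursors (open squares) or committed precursors (open triangles) in each library, with exact 95% intervals for counting error. The mature share is 8.18% and 9.78% in the Tgfbr2-cKO libraries and under 0.8% in the other 4.

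The 2 mice of a library could be told apart by sex, from Xist and Y-linked UMIs, and this gives the only view of spread within a group. In Tgfbr2-cKO at 7 dpi, 9.77% of female nuclei but 2.75% of male nuclei were mature oligodendrocytes, which is 626 and 65 nuclei. A further 197 of its 888 mature oligodendrocytes had no sex call. Of its 10856 filtered nuclei, 6410 were called female and 2367 male. Which mouse the uncalled nuclei came from is not known. At 21 dpi the shares were 9.09% and 9.91%, from 246 and 243 nuclei. In the Ctrl and ADWA11 libraries the female shares were 0.276, 0.413, 0.788 and 0.116% and the male shares 0.505, 0.657, 0.708 and 0.0709%. Among called nuclei, every mouse of Tgfbr2-cKO was therefore above every mouse of the other groups. The female and male shares of Tgfbr2-cKO at 7 dpi were farther apart than those of any other library. The part of uncalled nuclei in this gap was not tested. The log2 ratio of Tgfbr2-cKO to Ctrl at 7 dpi was 5.14 in females and 2.44 in males.

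The content of the dissected tissue also differed. Nuclei with Rbfox3 and a synaptic gene (Snap25 or Syt1), taken as neurons, were 58.5% of the Tgfbr2-cKO library at 7 dpi and 15.1% at 21 dpi, and 0.403 to 1.90% of the other 4 libraries. With neurons left out of the denominator, mature oligodendrocytes were 19.0% and 11.5% of the Tgfbr2-cKO nuclei, against 0.438 and 0.807% in Ctrl and 0.470 and 0.119% in ADWA11. The excess over Ctrl thus remained, whereas the order of the Tgfbr2-cKO libraries at 7 and 21 dpi was reversed. How much non-lesional cortex each library held was not measured, so a difference in lesion cells and one in dissected tissue cannot be told apart.

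The stages of the lineage did not move together. Oligodendrocyte precursors were 1.06, 1.95 and 1.90% of nuclei at 7 dpi (Ctrl, ADWA11, Tgfbr2-cKO) and 0.207, 0.103 and 1.30% at 21 dpi. Committed precursors, which express Gpr17 and Bcas1 without Pdgfra, were 0.202, 0.880 and 0.534% at 7 dpi and 0.0249, 0.0158 and 0.221% at 21 dpi. Of the nuclei in these 3 stages, 25.4, 14.2 and 77.1% were thus mature at 7 dpi, and at 21 dpi 77.4% in Ctrl, 15 of 30 in ADWA11 (31.3 to 68.7%) and 86.6% in Tgfbr2-cKO. Both precursor stages had to lack Col1a2, Ptprc, Csf1r and Rbfox3, whereas a mature nucleus could have 1 exclusion gene. The mature parts are thus not on like terms. Col1a2 was also found in a larger part of the other nuclei in the Ctrl and ADWA11 libraries than in Tgfbr2-cKO. How many precursors this demand removed in each library was not counted, so their shares are not on like terms between libraries either. In Ctrl at 21 dpi, 20 of the 96 mature nuclei had no exclusion gene, beside 25 precursors and 3 committed precursors. In Ctrl the mature part was the smaller at 7 dpi, and at 21 dpi the order depended on this rule. In Tgfbr2-cKO it was the larger at both times, with 600 and 484 mature nuclei free of exclusion genes.

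Genes of newly formed oligodendrocytes had the widest median of any list in Tgfbr2-cKO against Ctrl at 7 dpi. The same held between the times in Ctrl and in ADWA11, whereas another list had a wider median in each other comparison. The list held 10 genes of cells that have just left the precursor stage, among them the myelin-associated protein Bcas1, the choline phosphodiesterase Enpp6, the kinase Fyn, the calcium channel Itpr2 and the scaffold Cnksr3. Bcas1 (chr2:170346991-170427845, minus strand, mm10) was at 1700 and 1260 CPM in Ctrl and ADWA11 at 7 dpi and at 482 to 1110 CPM in the other 4 libraries. Itpr2 was at 627 and 540 CPM in Ctrl and ADWA11 at 7 dpi and at 21.8 to 77.7 CPM elsewhere. Cnksr3 was at 857 and 801 CPM against 63.2 to 133 CPM, and Frmd4a, a cell polarity gene, at 5350 and 4132 CPM against 188 to 786 CPM. The WT libraries at 7 dpi, Ctrl and ADWA11, were thus the high ones for all 4 genes.

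**Figure D3:**
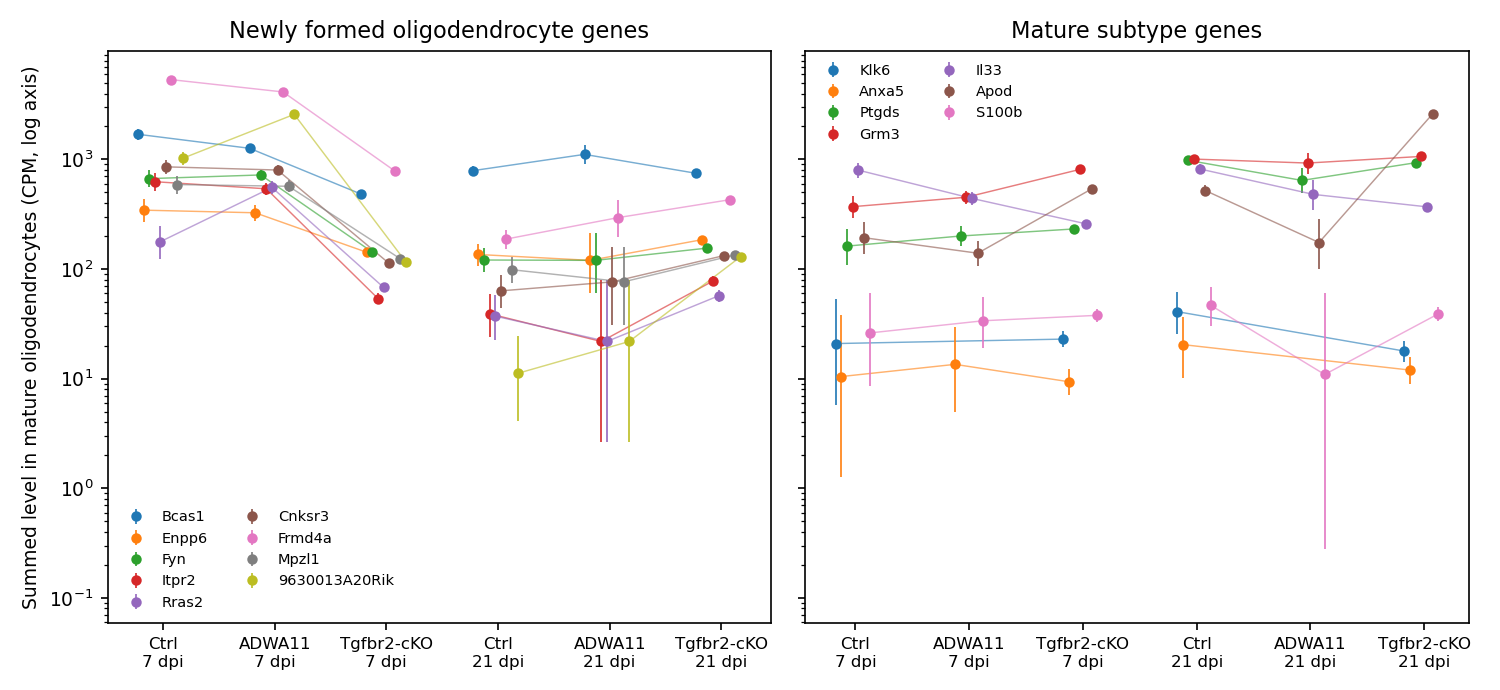
Summed level in CPM (log axis) of newly formed oligodendrocyte genes (left) and mature subtype genes (right) in the mature oligodendrocytes of each library, with exact Poisson 95% intervals. Lines join the libraries of a time point, a gene with 0 UMIs in a library is not drawn, and Casr and Hopx, with few UMIs, are left out. All 9 genes on the left are lower in Tgfbr2-cKO than in Ctrl at 7 dpi, and Apod on the right is highest in Tgfbr2-cKO at 21 dpi.

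All 9 of the list's genes that could be compared were at least 2-fold lower in Tgfbr2-cKO than in Ctrl at 7 dpi, where 11.1% of all compared genes were that much lower and 15.7% that much higher. Their median log2 ratio was −2.25, beside −0.03 over all compared genes, and reached −3.54 (−3.85 to −3.23) for Itpr2. All 9 were likewise lower in Ctrl at 21 than at 7 dpi, with a median of −2.58, where 7.84% of genes were lower and 9.73% higher. These comparisons share the Ctrl library at 7 dpi. In ADWA11, 8 of 9 were lower at 21 than at 7 dpi, with a median of −3.39, beside 8.65% of genes lower and 7.23% higher (140 and 117 genes, or 252 and 37 with TMM scaling). Between ADWA11 and Ctrl at 7 dpi, where 4.39% of genes were at least 2-fold higher and 4.94% lower, the median was −0.08, and the GTPase Rras2 (1.65, 1.12 to 2.21) and 9630013A20Rik (1.33, 1.11 to 1.56) were higher in ADWA11.

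These sums rested on a few nuclei. The share of a nucleus's UMIs that came from the 10 genes had a median of 0.216% in Ctrl, 0.238% in ADWA11 and 0.157% in the Tgfbr2-cKO mice at 7 dpi, and of 0.144, 0.185 and 0.146% at 21 dpi. The highest nucleus of each library had 5.48, 4.34 and 6.13% at 7 dpi and 0.511, 0.436 and 5.61% at 21 dpi. Nuclei above 1%, a limit chosen after these values were seen, were 4 of 34 in Ctrl at 7 dpi (11.8%, 3.30 to 27.5), 9 of 51 in ADWA11 (17.6%, 8.40 to 30.9) and 12 of 888 in Tgfbr2-cKO (1.35%, 0.7002 to 2.35). At 21 dpi they were 0 of 96 in Ctrl, which allows up to 3.77%, 0 of 15 in ADWA11, which allows up to 21.8%, and 3 of 619 in Tgfbr2-cKO (0.485%, 0.100 to 1.41). None of them was a called doublet, and at 7 dpi both sexes held some in each library.

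**Figure D4:**
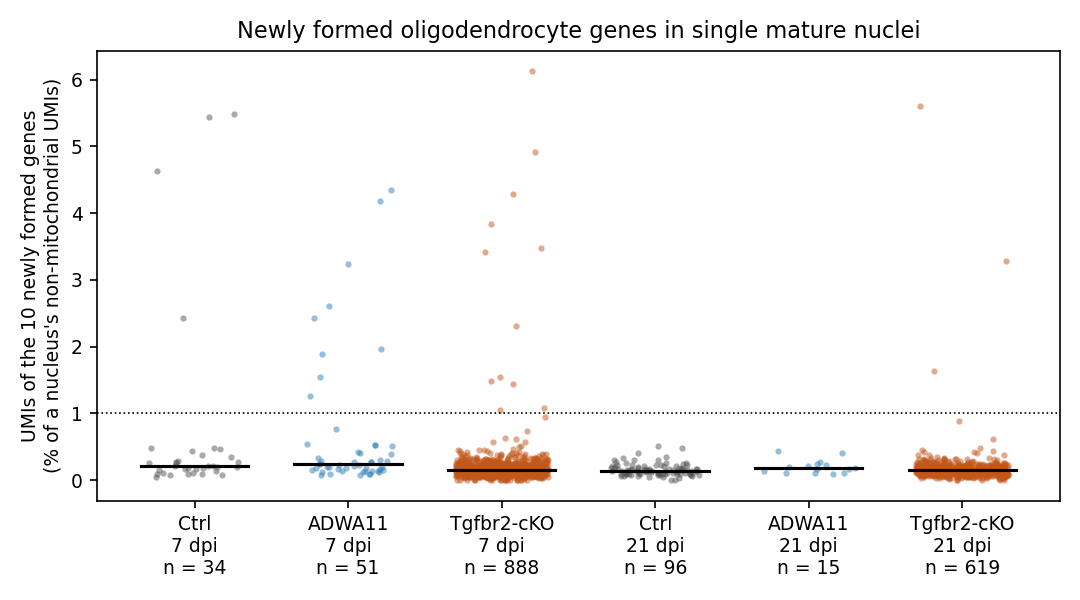
Percent of a nucleus's non-mitochondrial UMIs that came from the 10 newly formed oligodendrocyte genes, for each mature oligodendrocyte (points) in each library, with the library's median (bar) and the 1% limit (dotted line). Above the line lie 4 of 34, 9 of 51 and 12 of 888 nuclei at 7 dpi and 0 of 96, 0 of 15 and 3 of 619 at 21 dpi.

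The few nuclei above 1% held 83.1% of the list's UMIs in Ctrl and 84.3% in ADWA11 at 7 dpi, and 24.4% in Tgfbr2-cKO. In Ctrl they held 97.7% of the UMIs of Frmd4a, 94.2% of Itpr2, 92.4% of the transcription factor Tcf7l2 and 90.3% of 9630013A20Rik. Without them the Tgfbr2-cKO to Ctrl ratio at 7 dpi was 1.88 (1.30 to 2.52) for Frmd4a and 0.59 (−0.17 to 1.47) for Enpp6, and so of the opposite sign to the sums. It stayed negative for Cnksr3 (−2.20), Fyn (−1.41), Bcas1 (−1.26) and 9630013A20Rik (−2.35), and the list's median was −1.26 in place of −2.25. Over all settings tried, only Fyn (−1.39 when nearest to 0) and Cnksr3 (−1.01) stayed past 2-fold. Mpzl1 came to −0.94, Itpr2 to −0.75, 9630013A20Rik to −0.62 and Bcas1 to −0.08, and Rras2 was at 0.40 in males. Without the nuclei above 1%, the list's median for 21 against 7 dpi was −1.16 in Ctrl, in place of −2.58. In ADWA11 it was −1.17 in place of −3.39. Frmd4a was then at 0.27 in Ctrl and 0.61 in ADWA11 and Enpp6 at 0.58 and 0.42, of the opposite sign to the sums. Iron genes then had the wider median in Ctrl, at 1.19. As a share of all filtered nuclei, those above 1% were 0.0506% (0.0138 to 0.129) in Ctrl, 0.0825% (0.0377 to 0.156) in ADWA11 and, for Tgfbr2-cKO, 0.111% (0.0571 to 0.193), all at 7 dpi. The intervals overlapped, but on 4, 9 and 12 nuclei this does not show that the libraries held alike numbers of them. The denominator also held neurons, which were 58.5% of nuclei in Tgfbr2-cKO and 1.90% in Ctrl. Without neurons it was 4668 nuclei in Tgfbr2-cKO and 7756 in Ctrl. The mature nuclei below 1% were many more in Tgfbr2-cKO. Committed precursors, which were themselves chosen by Bcas1, a gene of the list, had a median of 2.16, 1.00 and 1.57% at 7 dpi.

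Mature oligodendrocytes of Tgfbr2-cKO at 7 dpi had lower summed levels of myelin and lineage genes than those of Ctrl. All 5 lineage transcription factors that could be compared were at least 2-fold lower, with a median of −1.07, beside the 11.1% of all compared genes that were lower. Sox10, which drives the lineage, was at 282 CPM in Ctrl, 227 CPM in ADWA11 and 134 CPM in Tgfbr2-cKO, and Myrf, which switches on myelin genes, at 199, 176 and 95.2 CPM. Of 10 compact myelin and membrane genes, Mbp (−1.01, −1.11 to −0.90), Pllp (−1.14) and Cd9 (−1.77) were at least 2-fold lower, Mal was higher, and the median was −0.94, beside 11.1% of all genes lower and 15.7% higher. For both transcription factors ADWA11 was thus between Ctrl and Tgfbr2-cKO and nearer to Ctrl.

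These lower levels were nearer to Ctrl when nuclei were selected or weighted in other ways. Without the 160 called doublets of Tgfbr2-cKO at 7 dpi, the median was −0.26 for the myelin genes and −0.41 for the transcription factors. With nuclei in which no exclusion gene was detected, it was −0.36 and −0.47, and as a mean per nucleus, in which large nuclei do not dominate, −0.29 and −0.50. The largest mature nucleus of that library had 84811 UMIs. No neuronal level is given for these settings, and the part of neuronal RNA in the lower levels was not tested.

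Of 338 oligodendrocyte-enriched genes compared, 118 were at least 2-fold lower and 16 higher in Tgfbr2-cKO at 7 dpi, beside 11.1% of all genes lower and 15.7% higher. Their median log2 ratio was −0.71, beside −0.03 over all compared genes, so the enriched genes were lower as a set. These counts were not repeated without called doublets or under the other settings, and the part of neuronal RNA in them was not tested. Kirrel3, an adhesion molecule of the immunoglobulin family (chr9:34485894-35036716, plus strand), was at 12533 CPM in Ctrl, 9092 CPM in ADWA11 and 1332 CPM in Tgfbr2-cKO, a log2 ratio to Ctrl of −3.23 (−3.30 to −3.17). It was detected in 88.2% of nuclei in Ctrl and in ADWA11 and in 39.6% in Tgfbr2-cKO when every nucleus was thinned to 1000 UMIs. Unthinned shares were 97.1, 94.1 and 58.1%, beside 12.2, 12.8 and 56.4% of the other nuclei, and the ratio of the sums was −3.24 without the nuclei above 1%. Nfasc, the adhesion molecule neurofascin of the paranodal junction, was at 3960, 5147 and 914 CPM (−2.12, −2.225 to −2.004). Rnf122 (−2.95), Gm10863 (−2.31), Bfsp2 (−2.43), the vesicle gene Sytl2 (−2.15), Fam13c (−1.98), the microtubule gene Eml1 (−1.98) and Sema6a (−1.86), a guidance receptor, were also lower. Over the other settings tried the ratio came as near to 0 as −0.35 for Gm10863, −0.80 for Fam13c and Nfasc, −0.83 for Sema6a, −0.93 for Sytl2 and −0.98 for Bfsp2, so that these did not stay past 2-fold. Kirrel3 reached −2.49, Rnf122 −1.62 and Eml1 −1.10. Rnf122 (−2.03), Gm10863 (−1.14) and Sema6a (−1.63) were also lower in the other nuclei of Tgfbr2-cKO.

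The enriched genes that were at least 2-fold higher in Tgfbr2-cKO at 7 dpi were a smaller share than over all genes. Anln, a septin-binding protein of the myelin sheath, was at 73.1 CPM in Ctrl, 58.5 CPM in ADWA11 and 345 CPM in Tgfbr2-cKO (2.24, 1.49 to 3.11). Hapln2, a link protein of the node of Ranvier, was at 36.6, 60.8 and 124 CPM (1.76, 0.71 to 3.08), and the adhesion gene Ctnna3 at 590, 635 and 1489 CPM (1.33, 1.07 to 1.61). Zfand4 (3.06, 1.503 to 5.336, from 3 UMIs in Ctrl), Kctd13 (2.24), the amino acid transaminase Bcat1 (1.77), A330015K06Rik (1.27) and the glutamate receptor Grm3 (1.13) were higher as well. Grm3 was at 371 CPM in Ctrl, 452 CPM in ADWA11 and 813 CPM in Tgfbr2-cKO. Like Ctnna3, Hapln2 and A330015K06Rik, it was also higher in the other nuclei. Over the other settings tried Zfand4 stayed past 2-fold, whereas Anln came as low as 0.67, Hapln2 0.96, Ctnna3 0.87, Kctd13 0.79, Bcat1 0.73, Grm3 0.81 and A330015K06Rik 0.28.

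Over all genes, those highest in Tgfbr2-cKO at 7 dpi were neuronal. Meg3 and Fgf14 had 0 UMIs in Ctrl and were at least 7.63 and 7.02 higher on the log2 scale, with the 0 set to 3 counts. Kcnip4 (7.26), Dpp10 (6.94) and the synaptic vesicle protein Syt1 (8.26, 5.78 to 13.57, from 1 UMI in Ctrl) followed, and all 5 were at 3199 to 8775 CPM in the other nuclei of that library. Besides Kirrel3 and Rnf122, the genes lowest by the same rule were Gm42418, Aebp1 and Gm10863. Gm42418, which overlaps ribosomal RNA sequence, was at 8280 CPM in the mature oligodendrocytes of Ctrl and 8291 CPM in its other nuclei.

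At 21 dpi Apod, Ddc, Hif3a and Cdkn1a were higher in the mature oligodendrocytes of Tgfbr2-cKO than in those of Ctrl. At least 2-fold higher in Tgfbr2-cKO were 6.29% of genes and lower were 5.89%, which is 423 and 396 genes, or 530 and 314 with TMM scaling (a weighted mean of the gene ratios). Apod, the lipid carrier apolipoprotein D (chr16:31296192-31314808, minus strand), was at 521 CPM in Ctrl, 175 CPM in ADWA11 and 2615 CPM in Tgfbr2-cKO, a log2 ratio to Ctrl of 2.33 (2.157 to 2.504). Ddc, which makes dopamine and serotonin, was at 1.86, 0 and 232.7 CPM (6.97, 4.49 to 12.27, from 1 UMI in Ctrl). Hif3a, a hypoxia-inducible subunit, was at 3.72, 0 and 167 CPM (5.49, 3.63 to 8.54), and Cdkn1a, a p53 target that halts the cell cycle, at 3.72, 0 and 53.3 CPM (3.84, 1.97 to 6.89, and 0.09 to 4.73 over the other settings tried). The Tgfbr2-cKO library stood above the other 2 for all 4 genes. The rest of their lists did not follow. Of 6 mature subtype genes compared with Ctrl, Apod alone was 2-fold higher and Klk6 and Il33 were lower, with a median of −0.16. Of 5 p53 and cell death genes only Cdkn1a was past 2-fold (median 0.08). Of 7 metabolic and hypoxia genes only Hif3a was (median 0.39).

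Detection of these 4 genes differed between the mice of the Tgfbr2-cKO library. In nuclei thinned to 1000 UMIs, Apod was found in 79.7% of female and 44.9% of male nuclei of Tgfbr2-cKO at 21 dpi, Ddc in 27.2 and 9.88%, Hif3a in 22.0 and 5.35% and Cdkn1a in 8.54 and 1.23%. In Ctrl at 21 dpi, Apod was found in 26.0% of female and 34.8% of male nuclei, Ddc and Hif3a in none, and Cdkn1a in 0 and 4.35%. Unthinned, Ddc was found in 43.1% of mature oligodendrocytes and 2.38% of the other nuclei of Tgfbr2-cKO, and Hif3a in 45.6 and 19.0%, at median depths of 6106 and 6623 UMIs. Other nuclei also had Apod in 42.5%, beside 88.9% of the mature oligodendrocytes. The share of nuclei with Ddc was thus low outside the mature oligodendrocytes of that library, and that with Hif3a or Apod was not. Hif3a was also higher in the other nuclei of Tgfbr2-cKO than in those of Ctrl at 21 dpi, at 47.6 and 4.99 CPM (3.25). So was Ddc, at 4.88 and 2.32 CPM (1.07).

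Of 362 oligodendrocyte-enriched genes compared at 21 dpi, 22 were at least 2-fold higher and 16 lower in Tgfbr2-cKO, which is near the 6.29% and 5.89% of all genes. Zfand4 (2.89, 2.38 to 3.44), Hapln2 (1.56, 1.08 to 2.10) and Bcat1 (1.53, 1.11 to 1.97) were among the first 8 higher, as they were at 7 dpi. They were joined by the adiponectin receptor Adipor2 (1.28), Pakap (1.33), Sez6l2 (1.31) and A330049N07Rik, which had 0 UMIs in Ctrl and was at least 4.03 higher. Kirrel3 was again lower, at 4965 CPM in Ctrl and 1984 CPM in Tgfbr2-cKO (−1.32, −1.39 to −1.26), while ADWA11 had 13883 CPM. Klhl32 (−1.70), the tubulin Tubb3 (−1.65), Gm11659 (−1.59), Gm10863 (−1.58), Pik3r3 and the alarmin Il33 (−1.15) were among the others lower. Over the other settings tried Kirrel3 came as near to 0 as −0.77, Klhl32 −0.83, Gm11659 −0.53, Pik3r3 −0.59, Il33 −0.81, Pakap 0.47 and Sez6l2 0.83, so that these did not stay past 2-fold. In the other nuclei Hapln2 (2.77), Sez6l2 (2.56), Pakap (1.21) and A330049N07Rik (4.58) were likewise higher and Pik3r3 (−1.44) and Il33 (−2.75) lower. Over all genes the lowest were the matrix genes Col1a1 (−5.15), Bgn (−4.36), Mrc2 (−3.70), Mgp (−3.32) and Igfbp5 (−3.08), which were also lower in the other nuclei of Tgfbr2-cKO, and the neuronal Nrg1 and Cntnap2 were among the highest.

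At 21 dpi 4 of 11 compact myelin genes and 3 of 11 lineage transcription factors were above Ctrl in Tgfbr2-cKO, and those past 2-fold were all lower. None of 11 compact myelin genes was 2-fold higher and Cd9 and Pmp22 were lower (median −0.47), whereas Mbp was at 3447 CPM in Ctrl and 3461 CPM in Tgfbr2-cKO (0.01, −0.06 to 0.08). The transcription factors Olig1, at 61.4 and 25.8 CPM, Olig2 (−1.49) and Nkx6-2 (−1.09) of 11 compared were lower, beside 5.89% of all genes, and came as near to 0 as −0.88, −0.73 and −0.44 over the other settings. Genes reported in oligodendrocytes of diseased tissue had a median of −0.67, with Il33, the antigen-presenting H2-D1 (−1.08), Steap3 (−1.44) and the tetraspanin Cd63 (−1.59) lower. Fibroblast genes were lower too, at 934 CPM in the selected nuclei of Ctrl and 44.3 CPM in those of Tgfbr2-cKO. The part of fibroblast RNA in these lower levels was not tested. Newly formed oligodendrocyte genes had a median of 0.61 at 21 dpi, with 0.25 without the 3 nuclei above 1% and −0.15 when the exclusion genes were not applied.

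Most lists were near Ctrl in the mature oligodendrocytes of ADWA11 at 7 dpi. No compact myelin, transcription factor or sphingolipid gene compared was 2-fold lower, with medians of −0.08, −0.15 and 0.15. C4b, a complement component raised in oligodendrocytes under disease, was at 345 CPM in Ctrl and 76.5 CPM in ADWA11 (−2.17, −2.81 to −1.55), and was found in 38.2 and 11.8% of thinned nuclei. Unthinned it was found in 58.8 and 33.3%, beside 17.2 and 16.7% of the other nuclei. Tnni1 (−1.88), the phosphoinositide kinase Pik3c2b (−1.30), Fam222a (−1.33), Adamts4 (−1.02), an aggrecan-cleaving protease, Insc, Prrt1 (−1.13) and Aldh1l2 (−1.12) were among the other enriched genes lower, 13 in all of 339 compared. As many were higher, which is near the 4.94% lower and 4.39% higher over all genes, among them Mtmr2, the hedgehog-binding Hhip (1.34), Asxl3 (1.06), Mal (1.18) and Atp10b (1.14). Over all genes Cntln, Pcdh7, Il1rapl1, Trpc1 and Macrod2 led those higher, by 1.40 to 2.85, and Gm42418, Gm26917 and Trappc10 led those lower with C4b and Tnni1. Gm42418 (−1.37), Tnni1 (−1.60) and Pik3c2b (−1.03) were also lower in the other nuclei. Of the 30 list members and ranked genes past 2-fold in this comparison, 24 did not stay so over all other settings, among them Cntln (0.26), Macrod2 (0.75), Pcdh7 (0.80), Il1rapl1 (0.93), Hhip and Asxl3 (0.06), Insc (−0.27) and Adamts4 (−0.35), each at its value nearest to 0 or past it. With TMM scaling, which shifted these ratios by 0.15 on the log2 scale, 207 genes were higher and 97 lower in place of 135 and 152.

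At 21 dpi the 15 mature nuclei of ADWA11, all called doublets, allowed few genes to be compared. At least 2-fold higher were 2.47% and lower were 4.71% of 1700 genes (34 and 106 genes with TMM scaling in place of 42 and 80). C4b was again lower, at 638 CPM in Ctrl and 229 CPM in ADWA11 (−1.48, −2.19 to −0.84), and so were Apod (−1.58, −2.40 to −0.85), Anln (−2.08), Adipor2 (−1.33) and Slc25a13 (−1.53). Kirrel3 (1.48, 1.39 to 1.58), Dusp10 (1.14) and the choline dehydrogenase Chdh (1.42) were among the 8 of 269 enriched genes that were higher. Over all genes, Zfhx4 (−3.46) and Zdhhc20 (−1.52) were also among the lowest and Virma (1.64), Trappc8 (1.17) and Zfhx2 (1.23) among the highest. Of the 16 list members and ranked genes past 2-fold, 14 did not stay so over all other settings, with Apod at −0.17, C4b at −0.46, Slc25a13 at −0.59 and Chdh at 0.09 when nearest to 0. Itgb8, the β8 subunit that ADWA11 binds, was at 298 CPM in Ctrl, 205 CPM in ADWA11 and 83.4 CPM in the Tgfbr2-cKO mice at 7 dpi, and at 123, 317 and 103 CPM at 21 dpi. It was thus lower in Tgfbr2-cKO than in Ctrl at 7 dpi (−1.84, −2.23 to −1.42) and higher in ADWA11 than in Ctrl at 21 dpi (1.37, 0.68 to 2.02).

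From 7 to 21 dpi the mature oligodendrocytes of Ctrl had higher levels of mature subtype genes. Of 4 compared, 3 were at least 2-fold higher, beside 9.73% of all genes higher and 7.84% lower. The others of this list of 8, Klk6, Hopx, Anxa5 and S100b, had too few UMIs to be compared. Ptgds, a prostaglandin D synthase of mature oligodendrocyte subtypes (chr2:25466709-25470046, minus strand), was at 162 CPM at 7 dpi and 982 CPM at 21 dpi (2.60, 2.08 to 3.17). Apod was at 193 and 521 CPM (1.43) and Grm3 at 371 and 1008 CPM (1.44), and the 4 mature subtype genes compared had a median of 1.44. The iron genes Trf, the transferrin that oligodendrocytes secrete (1.43, 1.12 to 1.76), and Fth1, the ferritin heavy chain (2.39, 1.72 to 3.14), were higher, with a list median of 1.12. Mal, a proteolipid of compact myelin, was at 57.5 and 415 CPM (2.85, 1.98 to 3.87), while Mbp was near level (−0.24, −0.36 to −0.12).

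Ptgds and Apod were also higher in the other nuclei of Ctrl, at 26.8 and 466 CPM and at 104 and 393 CPM, and the part of free RNA was not tested, while Grm3 was at 40.2 and 52.7 CPM there. The same held for Mal, whose log2 ratio was 1.72 in the other nuclei. Of 352 enriched genes 30 were higher and 48 lower in Ctrl at 21 dpi, beside 9.73% of all genes higher and 7.84% lower. Among the higher were Kcna1 (1.85), Anln (1.92), the desaturase Scd2 (1.62), 4930419G24Rik (3.21) and Gm11149 (2.60). In the other nuclei Kcna1 (1.96), 4930419G24Rik (4.93), Gm11149 (1.55) and Scd2 (1.03) were at least 2-fold higher too. Among the lower were Eml1 (−2.24), Sema6a (−1.79), Pex5l (−1.47), Kirrel3 (−1.34), Dusp15 (−1.92), Rnf122 (−2.10), Bfsp2 (−1.75) and the RNA-binding Elavl3 (−1.41). Kirrel3, Eml1, Sema6a, Rnf122 and Bfsp2 were also lower in Tgfbr2-cKO than in Ctrl at 7 dpi, and Anln and Grm3 higher, in a comparison that shares the Ctrl library at 7 dpi. Over all genes Hmgcll1 (2.82) and Htra1 (2.97) were among those highest with Mal, and Taco1 (−2.49), Gm42418 (−1.84), Gm26917 (−2.03) and Csmd2 (−1.95) led those lower with Eml1. Taco1 (−1.77), Gm42418 (−1.57) and Gm26917 (−1.05) were also lower in the other nuclei. All of these rest on 34 nuclei at 7 dpi, and over the other settings tried Apod came to 0.39, Anln to 0.73, Pex5l to −0.76, Kirrel3 to −0.90 and Bfsp2 to −0.08.

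In Tgfbr2-cKO, which had the most nuclei, Ptgds and Apod were higher at 21 dpi as well, and Grm3, Trf and Fth1 did not reach 2-fold. Of 10 iron genes compared, Steap3 (2.83) and the iron exporter Slc40a1 (1.99) were at least 2-fold higher, as they were in the other nuclei (2.57 and 2.18). Ptgds was at 232 CPM at 7 dpi and 935 CPM at 21 dpi (2.01, 1.92 to 2.10), and Apod at 538 and 2615 CPM (2.28, 2.23 to 2.34). Grm3 was at 813 and 1067 CPM (0.39, 0.33 to 0.45), Trf at 537 and 951 CPM (0.82, 0.76 to 0.89) and Fth1 at 244 and 265 CPM (0.12, 0.01 to 0.23). C4b was at 254 and 609 CPM (1.26, 1.17 to 1.35). At least 2-fold higher were 5.48% of genes and lower were 14.1%, and without called doublets the counts were 374 and 531 in place of 728 and 1869. All 12 compact myelin genes were above 0, with a median of 0.75, but it was 0.15 without called doublets and 0.06 in nuclei with no exclusion gene. Among enriched genes Tma16 (2.11), Zfand4 (1.76), Ddc (1.75), Ccp110 (1.38), Arhgef37 (1.35), A330015K06Rik (1.24) and Mast3 (1.15) were higher, and Col20a1 (−1.97) and 9530059O14Rik (−1.15) lower. Over the other settings Tma16 came to 0.30, C4b to 0.64, Ccp110 to 0.89, Arhgef37 to 0.87, A330015K06Rik to 0.64, Mast3 to 0.54, Col20a1 to −0.36 and 9530059O14Rik to −0.89. C4b (2.22) and Ddc (1.58) were also higher and 9530059O14Rik (−1.38) also lower in the other nuclei. Over all genes, those highest included immunoglobulin transcripts (Igha, Igkc and Ighg2b), which were also higher in the other nuclei. Those lowest included the neuronal genes Drd2 and Reln.

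The share of selected nuclei with Ptgds was higher at 21 dpi in every group. The 15 nuclei of ADWA11 at 21 dpi were all called doublets. After thinning it was found in 11.8% (Ctrl), 23.5% (ADWA11) and 25.6% (Tgfbr2-cKO) of mature oligodendrocytes at 7 dpi and in 45.8, 53.3 and 49.9% at 21 dpi. Unthinned shares were 29.4, 64.7 and 52.6% at 7 dpi, beside 5.81, 13.6 and 8.66% of the other nuclei, and 84.4, 93.3 and 86.1% at 21 dpi, beside 55.6, 27.7 and 57.8%. The other nuclei thus had more Ptgds at 21 dpi too. Grm3 was found in 32.4, 31.4 and 55.0% at 7 dpi and in 57.3, 53.3 and 60.3% at 21 dpi. Klk6, which marks another mature subtype, was found in fewer nuclei than Ptgds. Unthinned, both Klk6 and Ptgds were found in 1, 0 and 36 nuclei at 7 dpi and in 9, 0 and 45 nuclei at 21 dpi. Klk6 without Ptgds was found in 3, 0 and 63 nuclei at 7 dpi and in 2, 0 and 13 nuclei at 21 dpi. Most nuclei with Klk6 in Ctrl and Tgfbr2-cKO at 21 dpi thus had Ptgds too. Il33, an alarmin, was found in 41.2, 23.5 and 25.2% at 7 dpi and in 49.0, 46.7 and 27.9% at 21 dpi.

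**Figure D5:**
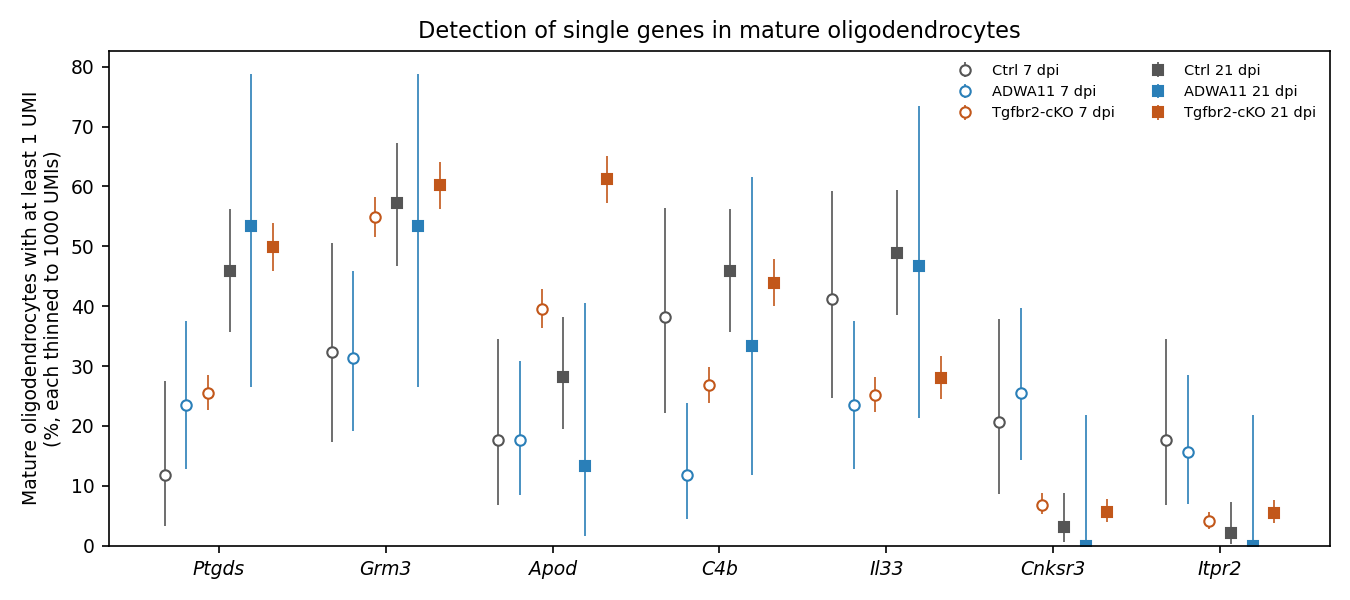
Percent of mature oligodendrocytes with at least 1 UMI of each gene after every nucleus was thinned to 1000 UMIs, by library (open circles 7 dpi, filled squares 21 dpi; colours are Ctrl, ADWA11 and Tgfbr2-cKO), with exact binomial 95% intervals. Ptgds lies at 11.8 to 25.6% in the 7 dpi libraries and at 45.8 to 53.3% in those at 21 dpi, and Apod is highest, at 61.2%, in Tgfbr2-cKO at 21 dpi.

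Transcripts of the type II TGFβ receptor were found in mature oligodendrocytes of every library, and in their other nuclei at 47.7 to 366 CPM. Tgfbr2 was at 57.5 CPM in Ctrl, 51.8 CPM in ADWA11 and 60.4 CPM in the Tgfbr2-cKO mice at 7 dpi, and at 186, 175 and 111 CPM at 21 dpi. Of the TGFβ pathway list, 2 of 6 genes compared were lower in Tgfbr2-cKO than in Ctrl at 7 dpi (Itgb8 and Smad7), 1 of 8 at 21 dpi (Tgfbr1), and none was higher, where 11.1% and 5.89% of all genes were lower. Over the other settings tried these ratios came as near to 0 as −0.55 for Itgb8, −0.44 for Smad7 and −0.27 for Tgfbr1. Since the Cre targets fibroblasts and the counts come from 3′ ends, these levels do not check the deletion. The ratio of Tgfbr2-cKO to Ctrl was 0.07 (−0.78 to 1.09) at 7 dpi and −0.75 (−1.06 to −0.42) at 21 dpi. The ratio of 21 to 7 dpi was 1.69 (0.79 to 2.74) in Ctrl and 1.75 (0.74 to 2.74) in ADWA11, with 0.04 to 2.20 and 0.72 to 2.25 over the other settings tried. Smad7, a feedback inhibitor of the pathway, was at 491, 401 and 215 CPM at 7 dpi and was at least 2-fold lower in Tgfbr2-cKO than in Ctrl (−1.19, −1.49 to −0.87), and the receptor gene Tgfbr1 was lower at 21 dpi (−1.02, −1.37 to −0.64).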

How the data were processed

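Nuclei of 6 libraries were captured with the 10x 3′ v3.1 chemistry. Per the file headers and the study's methods, the authors aligned the reads and made the deposited UMI counts with Cell Ranger 7.2.0, whereas the submitters' processing notes name 7.1.0. The genome was mm10, and 32235 of 32285 features were matched by identifier to GENCODE M21 for coordinates. The deposited matrices were the filtered barcodes, with whole-number counts.

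From these counts, barcodes with at least 1000 UMIs and under 5% mitochondrial UMIs were kept and the selection rule was applied. UMIs of the selected nuclei were summed per library and given as CPM over non-mitochondrial UMIs. A gene entered a comparison when its mean level amounted to at least 10 UMIs in the shallower library, and a log2 ratio of at least 1 in size was called 2-fold. A level of 0 was set to 3 counts and its ratio given as a bound. Shares carry exact Clopper-Pearson intervals, levels exact Poisson intervals and ratios exact conditional binomial intervals, all at 95%. There was 1 library per group, so no test was made and groups were taken from the GEO labels. PCR and shared tissue errors are outside these intervals.

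Doublets were called per library by simulating 2 doublets for each nucleus, at a rate of 0.8% per 1000 barcodes, and were kept in the main values. Nuclei were assigned to the female or male mouse by Xist and 4 Y-linked genes. TMM factors came from edgeR 4.0.16 in R 4.3.3, and the rest was computed with Python 3.11.15, NumPy 2.4.6, SciPy 1.17.1, pandas 2.3.3, scikit-learn 1.9.0 and matplotlib 3.10.9. The gene ratios of Tgfbr2-cKO against Ctrl at both times and of time in Ctrl were tested on simulated counts with counting error only. Selection, doublet calls, sex calls, shares and thinning were not tested in this way. Cell types were rebuilt here from marker genes, so a difference from the study's own cell types may come from the names.

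The selection rule, the 16 gene lists and the markers were chosen with earlier results of these data known, so no list is independent evidence of its own direction. Beyond list members, the genes named in 6 of the 7 comparisons were the first 5 per direction over all compared genes and the first 8 among oligodendrocyte-enriched genes, ranked by the interval bound nearest to 0. Only genes past 2-fold were ranked, and genes with over 20% of their UMIs in a single nucleus, mitochondrial and sex-linked genes and the 15 selection genes were left out. Itgb8, Tgfbr2 and other list members were named by role. Alternatives are given at the end. Some members of the lists and of the ranked genes are not reported here.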

Additional observations from a re-analysis of the deposited data

Results flagged for a closer look

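A set of 3 newly formed oligodendrocyte genes had ratios of Tgfbr2-cKO to Ctrl of opposite sign at 7 and 21 dpi, each past 2-fold. For Cnksr3 the log2 ratio was −2.93 at 7 dpi and 1.07 at 21 dpi. For Frmd4a it was −2.77 and 1.19. For 9630013A20Rik it was −3.14 and 3.54, with 6 UMIs in Ctrl at 21 dpi. The difference between the times was not tested, since each value compares 1 library with 1 library. At 7 dpi the 4 nuclei above 1% held 78.7, 97.7 and 90.3% of the Ctrl UMIs of the 3 genes in that order. The values at 21 dpi were of the opposite sign when the exclusion genes were not applied, at −0.01 for Cnksr3, −0.28 for Frmd4a and −0.11 for 9630013A20Rik, and without the nuclei above 1% Cnksr3 was at −0.19.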

How the results depend on the processing

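No paired analysis was made because each group had 1 library, and female and male nuclei are given apart. The excess of mature oligodendrocytes in Tgfbr2-cKO over Ctrl kept its sign under every alternative tried. Its log2 ratio at 7 dpi was 4.96 with no exclusion gene detected, 3.74 with nuclei thinned before selection, 5.44 without neurons in the denominator, 5.14 in female and 2.44 in male nuclei, in place of 4.25. At 21 dpi it was 5.53 with no exclusion gene detected and 3.17 with the exclusion genes not applied, in place of 3.62. Without called doublets ADWA11 at 21 dpi had 0 mature oligodendrocytes, so its share was at most −4.96 against Ctrl and −4.25 against 7 dpi on the log2 scale, and its genes had no value. ADWA11 against Ctrl at 7 dpi was −0.41 with nuclei thinned before selection, in place of 0.12. The share at 21 against 7 dpi in Ctrl was −0.096 with no exclusion gene detected and 1.51 in females, in place of 0.89, and in ADWA11 −3.21 in males, in place of −1.98. In Tgfbr2-cKO it was 0.47 with no exclusion gene detected, 0.53 after thinning, 0.41 without called doublets, −0.73 without neurons in the denominator, −0.10 in females and 1.85 in males, in place of 0.26. The cause of these shifts was not tested.

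Counts of genes past 2-fold changed with the number of nuclei and genes compared. In the order Tgfbr2-cKO against Ctrl at 7 and 21 dpi, ADWA11 against Ctrl at 7 and 21 dpi, and time in Ctrl, ADWA11 and Tgfbr2-cKO, the counts higher and lower were 531 and 375, 423 and 396, 135 and 152, 42 and 80, 320 and 258, 117 and 140, and 728 and 1869. Counts over 1.5 times apart from these follow in the same order. With a minimum of 20 UMIs they were 290 and 232, 251 and 193, 45 and 50, 10 and 11, 123 and 152, 35 and 74, and 439 higher. With no exclusion gene detected they were 192 and 180, 109 and 69, 85 higher, 30 lower, 205 higher, 49 and 74, and 338 and 527. Female nuclei gave 190 and 172, 247 lower, 56 and 74, 39 lower, 121 and 155, and 68 and 79. Male nuclei gave 195 and 128, 150 and 191, for ADWA11 at 21 dpi 27 lower, 180 higher, 39 and 59, and 311 and 707. TMM scaling gave 207 and 97 for ADWA11 at 7 dpi and 37 and 252 for time in ADWA11, and without called doublets time in Tgfbr2-cKO gave 374 and 531. With the exclusion genes not applied, an alternative chosen after the data were seen, as was leaving out the nuclei above 1%, they were 982 and 1168, 724 and 1153, 214 and 790, 182 and 331, 709 and 440, 323 and 232, and 1155 higher. TMM shifted the ratios by 0.14, 0.11 and 0.15 in the first 3 comparisons and by −0.33 and −0.10 for time in ADWA11 and Tgfbr2-cKO.

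Of 853 list medians under the alternatives, 137 had the opposite sign to the value reported, 128 of them where that value was under 0.5 in size and 9 where it was not, which follow. At 7 dpi in Tgfbr2-cKO against Ctrl the selection markers were at 0.26 with no exclusion gene detected, 0.035 without called doublets and 0.052 in males, in place of −0.67. At 21 dpi newly formed genes were at −0.15 in place of 0.61 and integrated stress genes at −0.036 in place of 0.78 with the exclusion genes not applied. Mature subtype genes of ADWA11 at 21 dpi were at 0.17 in males in place of −0.69. Receptors and channels over time in ADWA11 were at −0.058 as a mean per nucleus in place of 0.52. Over time in Tgfbr2-cKO with no exclusion gene detected, sphingolipid genes were at −0.017 in place of 0.63 and receptors and channels at −0.074 in place of 0.61. Of the others, the widest shifts were with no exclusion gene detected, to 0.58 in place of −0.47 for receptors and channels in Tgfbr2-cKO against Ctrl at 7 dpi and to −0.65 in place of 0.49 for TGFβ genes over time in Ctrl. Of list members and ranked genes past 2-fold, 69 of 97, 45 of 73, 24 of 30, 14 of 16, 37 of 72, 20 of 38 and 56 of 82, in the order above, were under 2-fold or of opposite sign in at least 1 alternative in which both groups had UMIs. Of the genes named, Enpp6 in Tgfbr2-cKO against Ctrl at 7 dpi was at 0.039 as a mean per nucleus and 0.070 with no exclusion gene detected, Gprc5b was at 1.18 in the latter, from 3 UMIs in Ctrl, and Pllp and Opalin were at 0.31 in males. With no exclusion gene detected, Pmp22 at 21 dpi in Tgfbr2-cKO was at 0.82, Aldh1l2 in ADWA11 at 7 dpi at 0.12 and Dusp10 in ADWA11 at 21 dpi at −2.13, with 1 to 3 UMIs in a group each, and Slc40a1 over time in Tgfbr2-cKO had 3 UMIs at both times. In males, Slc7a11 over time in Tgfbr2-cKO was at −0.92 and Reln, from 1 UMI at 7 dpi, at 0.95. The 34 nuclei of Ctrl at 7 dpi and the 15 of ADWA11 at 21 dpi limited most comparisons.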

Other observations

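Further lists were followed in the mature oligodendrocytes of Tgfbr2-cKO. Of 8 receptors and channels compared with Ctrl at 7 dpi, the insulin-like growth factor receptor Igf1r was higher (1.47, 0.89 to 2.12) and the neuregulin receptor Erbb3 (−1.06), the lysophosphatidic acid receptor Lpar1 (−1.42) and Gprc5b (−1.05) were lower, beside 15.7% of all genes higher and 11.1% lower. Igf1r came to 0.49, Erbb3 to −0.10 and Lpar1 to −0.51 over the other settings tried. Of 6 sphingolipid and fatty acid genes, Ugt8a, which makes the myelin lipid galactosylceramide, was lower (−1.21, −1.42 to −0.99), with a list median of −0.31. Ugt8a came as near to 0 as −0.29 over the other settings tried, and the median was 0.35 as a mean per nucleus, 0.12 with no exclusion gene detected and 0.43 without called doublets. At 21 dpi, where 6.29% of all genes were higher and 5.89% lower, none of 8 was past 2-fold against Ctrl. Of 6 cholesterol synthesis genes compared at 21 dpi none was past 2-fold, with a median of −0.06. Of 3 integrated stress response genes, the serine synthesis gene Psat1 was higher (1.09, 0.45 to 1.79). Few members of the interferon, p53 and hypoxia lists had enough UMIs to be compared in either contrast, at 2 to 7 of each list.

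Between 7 and 21 dpi within Tgfbr2-cKO these lists could be followed almost whole, and 5.48% of all genes were at least 2-fold higher and 14.1% lower. All 10 sphingolipid and fatty acid genes were above 0, with a median of 0.63, and the ceramide synthase Cers2 (1.12) and the desaturase Scd1 (2.05) were past 2-fold, but the median was −0.02 in nuclei with no exclusion gene detected. Of 15 cholesterol synthesis genes only the feedback regulator Insig1 was past 2-fold (1.10), with a median of 0.17. Of 15 interferon and antigen processing genes, Irf1 (1.99) and the immunoproteasome subunit Psmb8 (2.22) were higher, beside 5.48% of all genes, and both were also higher in the other nuclei. Of 8 integrated stress genes, the serine synthesis gene Phgdh (1.06) and the cystine transporter Slc7a11 (1.47) were higher. Of 13 metabolic and hypoxia genes, the glucose transporter Slc2a1 (1.35) and Hif3a (2.23) were higher and the mitochondrial kinase Pdk1 (−1.12) was lower. Phgdh, Slc7a11 and Slc2a1 were also higher in the other nuclei. Over the other settings tried Phgdh came to 0.52, Slc7a11 to −0.92, Slc2a1 to 0.40, Pdk1 to −0.42, Cers2 to 0.45 and Insig1 to 0.69. Scd1 and Hif3a stayed past 2-fold. None of 13 genes of the TGFβ pathway was past 2-fold, with a median of 0.25.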
